A study of Homo sapiens with 18 samples.

Results

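The repeat RNA of IMR90 cells treated with 5-fluorouracil (5-FU) for 6 h was compared with that of cells given its solvent, DMSO, for 6 h. The comparison takes 4 of the 18 libraries of the series, 2 with 5-FU and 2 with DMSO, and every repeat copy listed in their count table. IMR90 is an established line of human lung fibroblasts, labelled wildtype, and all libraries come from this line. The 5-FU dose was 375 µM, the value given in the labels beside the 5 µM of Nutlin, and DMSO was added in the volume of the drug. The same table holds 5-FU and DMSO libraries at 12 h and 24 h and untreated cells, whose medium was changed 12 h before extraction (2 libraries each), and a separate table holds Nutlin at 6 h with its own DMSO (2 libraries each). No gene is listed in either table, so the fibroblast label could not be checked against marker genes. The labels do not say that libraries of a group came from separate cultures, so the p-values measure the spread between these libraries, which may be technical. In such bulk samples, fewer cells of a kind and less RNA per cell cannot be told apart.

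Repeat elements are sequences present in many copies in the genome. L1 elements and Alu elements are retrotransposons, MIR and L2 are ancient relatives that no longer move, LTR elements derive from retroviruses, and SVA elements are young composite elements. Most copies no longer have activity of their own, and many lie inside genes, where they are copied as part of the gene's transcript, so reads on a copy do not by themselves tell which promoter they came from. 5-FU is an antimetabolite that disturbs the making of DNA and the processing of RNA, and the damage it causes activates the transcription factor p53. The series asks how repeat expression across the genome relates to p53.

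The 4 libraries held 5126778 and 4846170 counts on repeats with DMSO and 4816706 and 5535543 with 5-FU. Of the 2404193 copies in the table, 59.6% had no count in any of the 4. The 63602 copies with enough counts to be tested, termed loci here, are 2.65% of the copies and held between 76.7% and 83.2% of each library's counts. Ribosomal RNA took 21.1% and 11.3% of the counts with DMSO and 16.2% and 15.3% with 5-FU, so the DMSO libraries lay on either side of the 5-FU libraries. Levels below are CPM, counts per 1000000 counts of a library, scaled between libraries by TMM factors, and positions are on hg19.

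After 6 h, 64 of 63602 loci (0.101%) differed between 5-FU and DMSO (edgeR quasi-likelihood test, p adjusted by Benjamini-Hochberg over all loci and under 0.05). Loci that pass this test are referred to as called, and of these 57 were higher and 7 lower with 5-FU. At an unadjusted p under 0.05 there were 4690 loci, 2548 higher and 2142 lower, and the median log2 fold change of all loci was 0.00 (-0.0011). None of the 64 had overlapping groups, but neither did 41.1% of all loci, since 2 libraries against 2 separate easily. The calls depend on the libraries: without 5-FU library 2 there were 24 calls, without DMSO library 1 there were 34 and without DMSO library 2 there were 23, against 46 without 5-FU library 1. The log2 fold changes of the risen loci ran from 1.26 to 10.06 with a median of 2.20. The called loci had a median length of 301.0 bp against 303.0 bp for all loci, and a median level over the 14 libraries of the table of 9.98 CPM against 1.99 CPM for all loci.

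**Figure D1:**
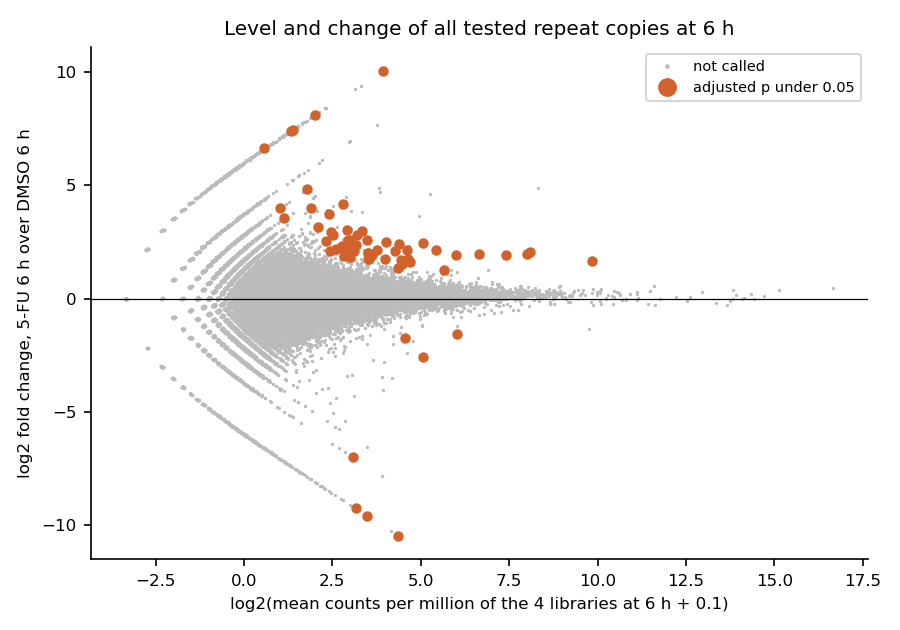
Each point is 1 of the 63602 tested repeat copies, placed by its log2 mean level in the 4 libraries (x axis, in CPM plus 0.1) and its fitted log2 fold change, 5-FU over DMSO at 6 h (y axis). The 64 called loci (orange) are mostly above the grey band of uncalled copies, and those at the outer curves had no count in 1 of the groups.

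The called loci lay close together. When called loci within 100 kb were joined, they fell into 29 windows, and 6 windows with at least 2 called loci held 41 of the 64 (64.1%), all of them risen. Neighbouring copies can lie on the same transcript, so the loci of a window are not separate observations. A called copy within 100 kb of a window would have been joined to it, so the tested copies beside a window are uncalled by definition. The tested copies of a window include its called loci, so their signs and median are partly set by how the window was chosen.

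The window with the most calls was on chromosome 12, from 69209211 to 69244081, with 19 called loci in 34871 bp. The smallest p in the whole table belonged to its L1MA5A copy, a fragment of an old L1, at 69237117 to 69237249. It had 26.7 and 26.4 CPM in the DMSO libraries and 100.3 and 101.9 CPM in the 5-FU libraries. The groups stood far apart, and replicates differed little: the mean rose from 26.5 ± 0.200 to 101 ± 1.14 CPM (SD, n = 2), a log2 fold change of 1.93 (SE 0.20, adjusted p = 0.000204, edgeR). This call held in all 14 alternative fits. Upstream of it on the map lay a row of called Alu copies. The AluY at 69233935 to 69234223 had 99.7 and 113.8 CPM with DMSO and 428 and 456 CPM with 5-FU, a log2 fold change of 2.05 (SE 0.25, adjusted p = 0.000353, edgeR). The AluSz at 69234616 to 69234915 had 100.8 and 106.2 CPM with DMSO and 392 and 428 CPM with 5-FU, a log2 fold change of 1.98 (SE 0.22, adjusted p = 0.000282, edgeR). Both untreated libraries lay nearer to DMSO than to 5-FU for these 3 copies. They had 18.5 and 20.3 CPM for L1MA5A, below both DMSO libraries. For the AluY they had 137.6 and 157 CPM and for the AluSz 119.1 and 120.4 CPM, above both DMSO libraries. Some other calls of the window held in fewer alternative fits, down to 7 of 14 for the AluSx at 69243502 to 69243690. Of the 55 copies tested in the window, which include the 19 called loci, 54 had a positive log2 fold change (median 1.99). The share over all loci, which were not chosen by their values, was 49.6%. The tested copies within 100 kb on either side, uncalled by definition, had smaller values. Of these 34 copies, 30 were positive. Their median log2 fold change was 0.97, with 0.66 on the side of lower and 1.40 on the side of higher coordinates.

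A shorter stretch on chromosome 6, from 36652397 to 36655104, held 6 called loci in 2708 bp. Its smallest p was that of an AluJo at 36652616 to 36652916, with 2.71 and 1.76 CPM in the DMSO libraries and 13.9 and 17.7 CPM in the 5-FU libraries. The groups did not overlap, and the log2 fold change was 2.82 (SE 0.37, adjusted p = 0.000718, edgeR), a call that was lost without DMSO library 2 (adjusted p = 0.0701). On either side of the AluJo lay MIR3, MIR and MER3 fragments, of which a MIR3, 2 MIR and the MER3 rose and another MIR at 36653014 to 36653093 did not pass the test (log2 fold change 1.70, adjusted p = 0.603, edgeR). The L2b fragment at the window's end, 36654978 to 36655104, had the highest level per kb of length of any called locus (10933 CPM per kb with 5-FU), with 430.1 and 452 CPM with DMSO and 1329 and 1448 CPM with 5-FU. Its mean rose from 441 ± 15.3 to 1388 ± 84.0 CPM (SD, n = 2), 3.15 times, with a log2 fold change of 1.65 (SE 0.24, adjusted p = 0.00261, edgeR). This call was lost without 5-FU library 2 (adjusted p = 0.0640), DMSO library 1 (0.0974) or DMSO library 2 (0.103). The untreated libraries had 409 and 447 CPM, level with DMSO. All 7 tested copies in the window, 6 of them called, had positive values. The 19 tested copies within 100 kb, 18 of them positive, had a median log2 fold change of 0.98.

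On chromosome 3, 6 loci were called between 178668031 and 178729312. Of the 36 tested copies of this stretch, the called ones included, 35 had a positive log2 fold change (median 2.22). Its lead copy was an L1PB1, a primate L1, at 178676416 to 178677743. It had 10.2 and 10.3 CPM in the DMSO libraries and 49.9 and 61.8 CPM in the 5-FU libraries. The groups stood apart, with a log2 fold change of 2.44 (SE 0.30, adjusted p = 0.000387, edgeR) that was called in all 14 alternative fits. The other calls of the stretch held in fewer fits, down to 10 of 14 for the MLT2B1 and the called L1MC5. All 20 tested copies within 100 kb were positive too. Their median log2 fold change was 2.42 on the side of lower coordinates (11 copies) and 0.59 on the other (9 copies), so values as high as those of the window went on past its first called copy.

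The window on chromosome 16, 88455450 to 88460916, held copies of 5 repeat classes, among them L1MB7, ERVL-B4-int, MIRb, Charlie5 and 2 L2 fragments. Its lead copy, an L2b at 88459050 to 88459439, had 7.91 and 5.27 CPM with DMSO and 34.1 and 35.7 CPM with 5-FU. The DMSO libraries lay below both 5-FU libraries, with a log2 fold change of 2.40 (SE 0.27, adjusted p = 0.000318, edgeR). Its L1MB7 copy at 88455450 to 88455994 had 17.9 and 13.7 CPM with DMSO and 63.2 and 78.1 CPM with 5-FU, a log2 fold change of 2.16 (SE 0.26, adjusted p = 0.000353, edgeR). Both calls held in all 14 alternative fits, while that of the MIRb held in 7. All 9 tested copies of the window, 6 of them called, were positive. Of 23 tested copies within 100 kb, 21 were positive, with a median log2 fold change of 1.09.

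The other pair of windows held 2 called loci each. On chromosome 12 between 4462721 and 4468201, an AluSg had 5.83 and 4.88 CPM with DMSO and 15.9 and 19.8 CPM with 5-FU, a log2 fold change of 1.73 (SE 0.33, adjusted p = 0.0342, edgeR). The 2 groups did not overlap, but the call was lost when any of the 4 libraries was left out, with adjusted p from 0.0911 (without 5-FU library 1) over 0.251 (without DMSO library 1) and 0.362 (without 5-FU library 2) to 0.396 (without DMSO library 2). All 10 tested copies of the stretch and all 6 within 100 kb were positive. On chromosome 8 between 95941308 and 95941586, a MIR copy had 9.16 and 11.1 CPM with DMSO and 31.1 and 35.7 CPM with 5-FU, a log2 fold change of 1.72 (SE 0.28, adjusted p = 0.00782, edgeR). This call was lost without DMSO library 1 (adjusted p = 0.209), DMSO library 2 (0.112) or 5-FU library 2 (0.128). Its neighbour MamSINE1, the other called copy, had a log2 fold change of 2.03 and was not called without 5-FU library 1 (adjusted p = 0.0808), 5-FU library 2 (0.0848) or DMSO library 2 (0.323).

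**Figure D2:**
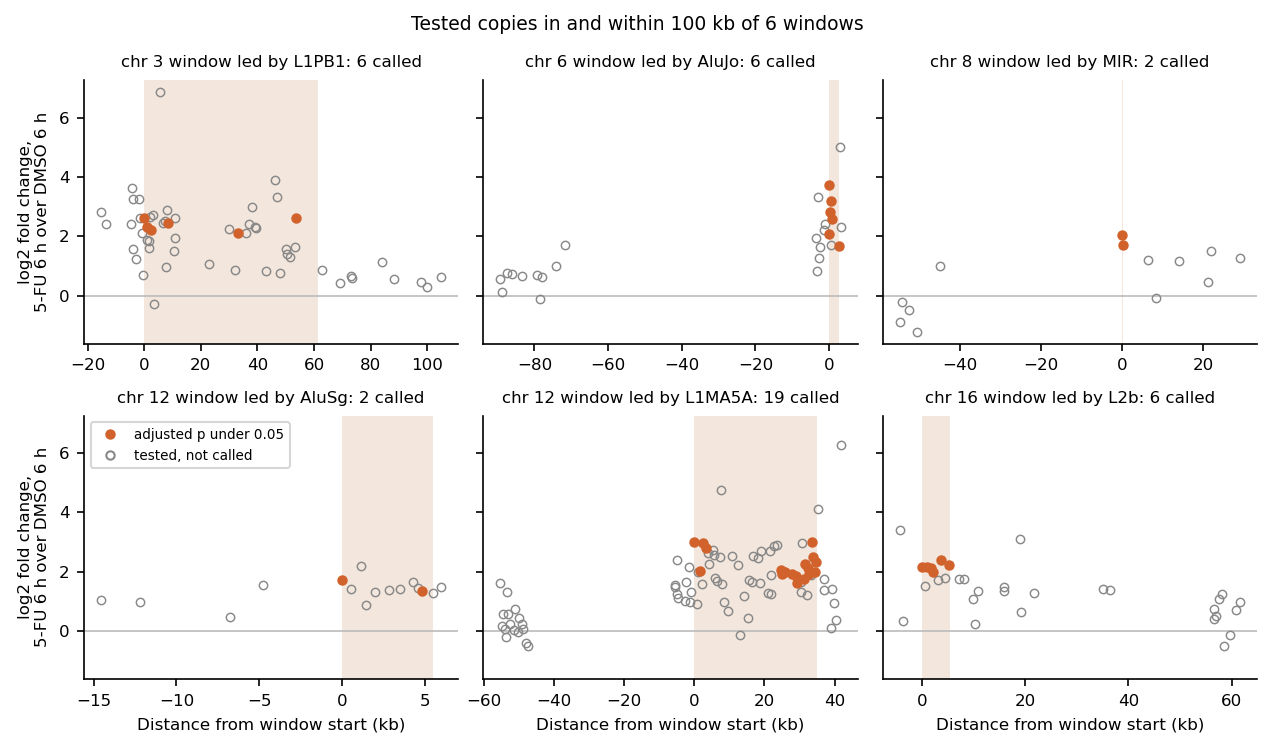
Fitted log2 fold change at 6 h (y axis) of every tested repeat copy in the 6 windows with at least 2 called loci and within 100 kb of them, by distance from the window's start in kb (x axis). Shading marks the window from its first to its last called locus and filled points are called. By the joining of called loci, no copy outside the shading can be a called one. Values are high within the windows and mostly closer to 0 farther away, as at the left of the chromosome 6 and of the larger chromosome 12 window, while values on chromosome 3 are as high just before the window's start.

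As background on these places, known p53-responsive genes have their place in these parts of the hg19 map: MDM2, which encodes the ubiquitin ligase that restrains p53, at the larger chromosome 12 window; CDKN1A, which encodes the cell cycle inhibitor p21, at the chromosome 6 window; TIGAR, a regulator of sugar metabolism, at the smaller chromosome 12 window; and TP53INP1, a p53 cofactor, at the chromosome 8 window. ZMAT3, an RNA-binding protein gene, is the neighbour of the chromosome 3 window, and FAS, which encodes a death receptor, holds the called L2c copy of chromosome 10 described next. These places are general knowledge and not the outcome of an annotation of the build, since none was used. Copies were therefore not assigned to exons, introns or UTRs, and no count or test rests on these names. Only p53-responsive genes were named, and the chromosome 16 window and the other lone loci are given no gene here. The list is thus no measure of how many called places lie at such genes, and a role of p53 was not tested.

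The other 23 windows held 1 called locus each, 16 risen and 7 fallen. The L2c copy on chromosome 10, 90774362 to 90774466, had 29.8 and 30.1 CPM with DMSO and 68.1 and 74.9 CPM with 5-FU, and its log2 fold change of 1.26 (SE 0.22, adjusted p = 0.0199, edgeR) was the smallest among the risen loci. It was chosen for mention after its values were seen, and its call was lost without any 1 of the 4 libraries: 5-FU library 1 (adjusted p = 0.108), 5-FU library 2 (0.260), DMSO library 1 (0.284) or DMSO library 2 (0.284). The smallest p among the lone risen loci was that of an L1PA4 on chromosome 1, 85564991 to 85566815, a primate L1. It had 0.833 and 0.586 CPM with DMSO and 13.9 and 12.4 CPM with 5-FU. It thus stood near the lower limit of counting with DMSO and well above it in both 5-FU libraries, with a log2 fold change of 4.16 (SE 0.51, adjusted p = 0.000353, edgeR), called in all 13 alternative fits that tested it. Within 100 kb, 17 copies were tested, all at higher coordinates and 5 of them positive, and their median log2 fold change was -0.38. The change at this copy was not shared by these neighbours, and no copy was tested at lower coordinates.

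Among the other lone risen loci were 4 LTR copies, of which 3 had the smaller p. The MER4E1 on chromosome 1, 94614516 to 94615284, had 0 and 0.391 CPM with DMSO and 5.14 and 7.79 CPM with 5-FU (adjusted p = 0.00425, edgeR), and the call was lost without 5-FU library 2 (adjusted p = 0.0624) or DMSO library 1 (0.119). The MLT1A1 on chromosome 11, 27664028 to 27664403, had 1.46 and 1.37 CPM with DMSO and 7.50 and 9.32 CPM with 5-FU, a log2 fold change of 2.55 (SE 0.40, adjusted p = 0.00589, edgeR), and was not called without 5-FU library 2 (adjusted p = 0.0981), DMSO library 1 (0.104) or DMSO library 2 (0.166). The LTR17 on chromosome 8, 55060881 to 55061641, had 5.00 and 9.18 CPM with DMSO and 20.8 and 27.6 CPM with 5-FU, a log2 fold change of 1.76 (SE 0.30, adjusted p = 0.0135, edgeR), and was not called without 5-FU library 2 (adjusted p = 0.236) or DMSO library 1 (0.353). In all 3 the groups did not overlap. The untreated libraries were at 11.0 and 13.7 CPM for the LTR17, between the DMSO and the 5-FU libraries, at 0 for the MLT1A1, and at 0.250 and 1.49 CPM for the MER4E1. The other LTR copy, an LTR47B4 on chromosome 16 at 88821653 to 88822099, had 0.416 and 0.195 CPM with DMSO and 3.43 and 4.37 CPM with 5-FU (adjusted p = 0.0305, edgeR). It was not called with only the 4 libraries in the fit (adjusted p = 0.106) or when any of the 4 was left out (0.0711 without 5-FU library 1, 0.236 without 5-FU library 2, 0.215 without DMSO library 1 and 0.396 without DMSO library 2). The Plat_L3 on chromosome 12, 85026 to 85174, an ancient LINE fragment, had 0.833 and 0 CPM with DMSO and 6.86 and 6.84 CPM with 5-FU, with 3.50 and 4.18 CPM in untreated cells (adjusted p = 0.00936, edgeR). It was not called with only the 4 libraries in the fit (adjusted p = 0.0562), without 5-FU library 2 (0.0606) or without DMSO library 2 (0.221).

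**Figure D3:**
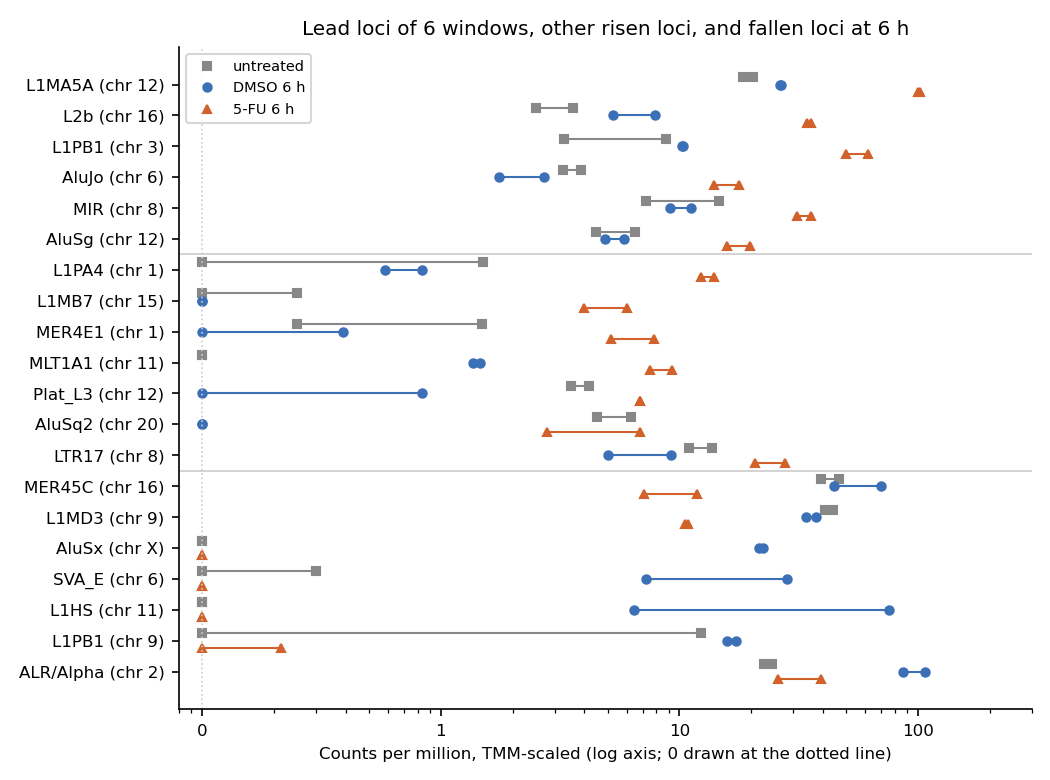
CPM (x axis, log scale, 0 drawn at the dotted line) in each library of the lead copies of the 6 windows (top), other named risen loci (middle) and all 7 fallen loci (bottom). Squares are untreated, circles DMSO 6 h and triangles 5-FU 6 h libraries, 2 of each. DMSO and 5-FU do not overlap at any of them, while both untreated libraries lie below both 5-FU libraries in all of the top group and at or near the 5-FU libraries at several fallen loci.

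At 8 of the 64 loci both libraries of a group had no count, so the fitted fold change is not a measure of size there. For 5 of them, all risen, the DMSO libraries were at 0. An AluJb on chromosome 19, 4500289 to 4500464, had 2.14 and 3.42 CPM with 5-FU. Untreated cells had 1.00 and 3.89 CPM there, on either side of the 5-FU libraries. This AluJb was not called with only the 4 libraries in the fit (adjusted p = 0.134, edgeR). The L1MB7 on chromosome 15, 32757808 to 32758111, had 6.00 and 3.99 CPM with 5-FU, at least 8.26-fold above a floor of 3 counts per DMSO library (adjusted p = 0.00250, edgeR), a call lost without DMSO library 1 (adjusted p = 0.0548) or DMSO library 2 (0.0891). The AluSq2 on chromosome 20, 54963586 to 54963890, had 2.79 and 6.84 CPM with 5-FU, at least 7.96-fold above that floor (adjusted p = 0.00940, edgeR). Its level in untreated cells was 4.50 and 6.28 CPM, within the range of the 5-FU libraries, so the 6 h DMSO libraries were the low ones. It was called neither without 5-FU library 2 (adjusted p = 0.136), DMSO library 1 (0.143) nor DMSO library 2 (0.204). An L1HS, the youngest human L1, on chromosome 4, 80858870 to 80864900, had 1.07 CPM in one 5-FU library and 59.7 CPM in the other, so 1 library carried its value (adjusted p = 0.0371, edgeR). An AluYb8, a young Alu, on chromosome 4, 58060821 to 58061131, had 5.57 and 10.3 CPM with 5-FU, at least 13.1-fold above the floor (adjusted p = 0.0380, edgeR). It had at most 0.172 CPM in any of the other 12 libraries of the table. The AluYb8 thus had enough counts to be tested only through the group where it was high. DESeq2 did not call the L1HS copy (adjusted p = 0.278) and gave no adjusted p for the AluYb8 copy. The AluYb8 was called in 6 of 12 alternative fits: it was lost with library size alone (adjusted p = 0.0609) and without 5-FU library 1 (0.259), 5-FU library 2 (0.810), DMSO library 1 (0.284) or DMSO library 2 (0.3195). The L1HS was called in 6 of 13, and was lost without 5-FU library 2 (adjusted p = 0.932), DMSO library 1 (0.356) or DMSO library 2 (0.383).

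The 7 fallen loci were of different classes. The MER45C, a DNA transposon fragment, on chromosome 16, 33964922 to 33965030, had 69.9 and 44.5 CPM with DMSO and 7.07 and 11.8 CPM with 5-FU. The groups stood apart in spite of the spread among DMSO libraries, with a mean of 57.2 ± 18.0 against 9.43 ± 3.33 CPM (SD, n = 2) and a log2 fold change of -2.59 (SE 0.32, adjusted p = 0.000389, edgeR). The L1MD3 on chromosome 9, 21865801 to 21867638, had 33.9 and 37.5 CPM with DMSO and 10.5 and 10.8 CPM with 5-FU, a log2 fold change of -1.74 (SE 0.23, adjusted p = 0.000775, edgeR). Both were called in all 14 alternative fits, and both untreated libraries were above both 5-FU libraries, at 39.3 and 46.6 CPM for the MER45C and at 43.8 and 40.6 CPM for the L1MD3. Around the L1MD3, 12 of the 13 tested copies at lower coordinates within 100 kb were not positive (median log2 fold change -0.55). At higher coordinates, 17 of the 24 were positive (median 0.39).

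At the other 5 fallen loci, at least 1 untreated library was as low as or lower than a 5-FU library. An alpha satellite block on chromosome 2, 92274435 to 92312482, next to the centromere, had 86.6 and 107 CPM with DMSO, 25.9 and 39.4 CPM with 5-FU and 22.5 and 24.5 CPM untreated. Its log2 fold change was -1.57 (SE 0.30, adjusted p = 0.0380, edgeR), and it was not called without any of the 4 libraries (adjusted p from 0.116 to 0.537) or with TMM factors from all copies (0.0724). The remaining 4 copies were at or near 0 with 5-FU. An AluSx on chromosome X, 2405410 to 2405670, had 21.4 and 22.5 CPM with DMSO and 0 in both 5-FU libraries, at least 36.2-fold lower against the floor of 3 counts (adjusted p = 0.0153, edgeR). It was also at 0 in both untreated libraries, had 22.2 and 21.4 CPM with DMSO at 12 h, and was at 0 with DMSO at 24 h. An SVA_E on chromosome 6, 5037244 to 5039107, had 28.1 and 7.23 CPM with DMSO and 0 with 5-FU, and an L1HS on chromosome 11, 78388818 to 78394847, had 6.45 and 75.2 CPM with DMSO and 0 with 5-FU. For both, the untreated libraries had at most 0.299 CPM, and the replicates of DMSO differed widely. Most counts of both copies lay in the 6 h DMSO libraries, so they were tested mainly through the group where they were high. An L1PB1 on chromosome 9, 69209548 to 69212773, had 15.8 and 17.2 CPM with DMSO, 0.214 and 0 CPM with 5-FU, and 12.3 and 0 CPM untreated (adjusted p = 0.0199, edgeR). None of these 4 copies was called by edgeR with a robust estimate of the spread (adjusted p of 0.687 for the AluSx, 0.635 for the SVA_E, 0.712 for the L1HS and 0.542 for the L1PB1). DESeq2 gave adjusted p of 0.840 for the AluSx, 0.789 for the L1HS and 0.207 for the L1PB1, and none for the SVA_E. Leaving out a library ended the call of the AluSx and the L1PB1 whichever it was, with adjusted p from 0.0556 to 0.218 and from 0.0750 to 0.358. The calls of the SVA_E (adjusted p from 0.160 to 0.531) and of the L1HS (0.207 to 0.456) were each lost in 3 of those 4 fits. L1HS, SVA and alpha satellite copies resemble one another closely, and how reads that fit several copies were counted is not given in the sources used here, so the assignment to 1 copy is uncertain for them.

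Untreated cells were lower than 5-FU cells at most risen loci. In 54 of the 57, both untreated libraries were below both 5-FU libraries, against 25.8% of all loci. Of the 7 fallen loci, 2 had both untreated libraries above both 5-FU libraries, the MER45C and the L1MD3, against 21.0% of all loci. The called loci were chosen by the values of these same 5-FU libraries and all loci were not. The shares of called loci are therefore partly set by that choice.

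The risen loci were followed to the later times, each against DMSO of the same time. At 12 h, 53 of the 57 were called higher (5.44% of all loci were), and at 24 h 52 were (2.42% of all loci). At both times 51 were called, and none was called lower at either. Of the risen loci, 41 lay in 6 windows, so these are not counts of separate observations. Their median log2 fold change was 2.20 at 6 h, 3.37 at 12 h and 2.76 at 24 h, and 46 of the 57 had a larger value at 12 h than at 6 h. The L2b copy at the end of the chromosome 6 window went from 1.65 at 6 h to 2.73 at 12 h and 2.65 at 24 h. The L1MA5A copy of chromosome 12 had log2 fold changes of 1.93, 1.52 and 2.76 at the 3 times, and the L1PB1 copy of chromosome 3 of 2.44, 4.16 and 2.79. Among the risen loci not called later were the AluSq2 (0.10 at 12 h and -0.28 at 24 h), the AluYb8 and the L1HS of chromosome 4. The L1MB7 of chromosome 15 had 7.85 at 12 h, where it was called, and 0.06 at 24 h. With 5-FU this L1MB7 had 5.88 and 7.26 CPM at 12 h and 5.10 and 5.42 CPM at 24 h. With DMSO it was at 0 at 12 h, so 7.85 is no measure of size, and at 6.18 and 3.96 CPM at 24 h.

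The difference between the 12 h and the 6 h effect was tested itself, as an interaction in the same fit. It was called at 7 of the 64 loci (0.651% of all loci). Those 64 were chosen by their 6 h values, which also enter this difference, so the count is partly set by that choice. Of the 7, 5 were copies of the chromosome 16 window, whose log2 fold changes were larger at 12 h. The L2b copy there went from a log2 fold change of 2.40 at 6 h to 5.40 at 12 h (adjusted p = 0.00937, edgeR), and the MIRb copy from 1.98 to 6.32 (difference 4.34, adjusted p = 0.0122, edgeR). The DMSO libraries moved with these values. The mean level of the L2b was 34.9 CPM with 5-FU at 6 h and 41.0 CPM at 12 h, while with DMSO it was 6.59 CPM at 6 h and 0.944 CPM at 12 h. The MIRb had 12.0 and 32.5 CPM with 5-FU and 3.01 and 0.382 CPM with DMSO at the same times, and the L1MB7 70.7 and 166 CPM with 5-FU and 15.8 and 7.90 CPM with DMSO. The part of the lower DMSO levels at 12 h in the larger effects was not tested. The L1MD3 of chromosome 9 went down further, from -1.74 to -3.38 (adjusted p = 0.0272, edgeR), and the AluSq2 lost its difference. The difference between the 24 h and the 6 h effect was called at 8 of the 64 loci (0.385% of all loci), a count also partly set by that choice of loci. It was positive at the L1MB7 (1.90, adjusted p = 0.0205, edgeR) and ERVL-B4-int (2.28, adjusted p = 0.0102, edgeR) copies of the chromosome 16 window and at a MIRb of the larger chromosome 12 window. Leaving out 1 library took the number at 12 h to between 2 and 4 and that at 24 h to between 3 and 9, so these calls are few and depend on each library. Of the fallen loci, 3 were called lower at 12 h, the MER45C, the L1MD3 and the AluSx, and at 24 h 3 were called lower and the AluSx higher.

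**Figure D4:**
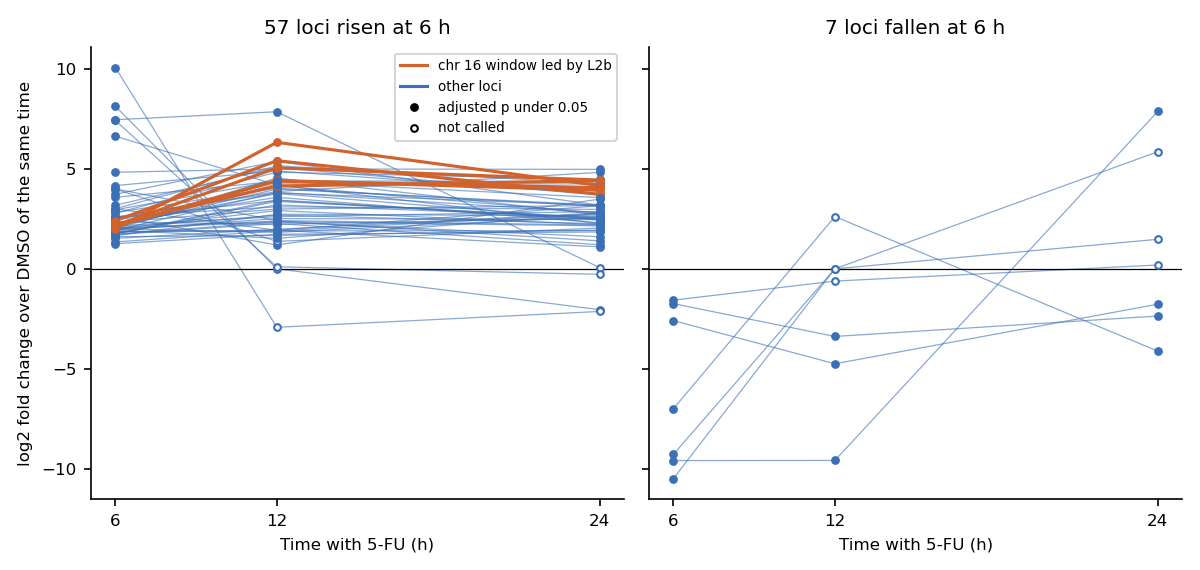
Fitted log2 fold change (y axis) over DMSO of the same time for the 57 risen (left) and 7 fallen (right) loci at 6, 12 and 24 h of 5-FU (x axis). Filled points are called at an adjusted p under 0.05. The 6 copies of the chromosome 16 window (orange) lie near 2 at 6 h and between 4.14 and 6.32 at 12 h.

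The other drug of the series, Nutlin, releases p53 from MDM2 without damaging DNA and was given at 5 µM for 6 h. All 64 loci are listed in its table, which was normalized apart from the 5-FU table, and 49 had enough counts to be tested there. Of the 45 risen loci tested, 37 were called higher with Nutlin (5.36% of all loci of that table were) and none lower. Many of them share a window, so these are not counts of separate observations. Among lone risen loci tested with Nutlin, the L1PA4 of chromosome 1 and the L2c of chromosome 10 were called higher. The AluY and FAM of chromosome 6, the LTR17 of chromosome 8, the L1MC3 of chromosome 10 and the L1MB7 of chromosome 15 were not called. In the larger chromosome 12 window, all 52 copies tested were called higher with Nutlin with a median log2 fold change of 4.81, beside 1.99 for the 55 copies tested with 5-FU. The L2b copy of chromosome 6 had a log2 fold change of 3.83 with Nutlin and 1.65 with 5-FU. In the chromosome 16 window, 3 copies could be tested with Nutlin and none was called, the L1MB7 having a log2 fold change of 0.03 (adjusted p = 0.981, edgeR) beside 2.16 with 5-FU. The LTR17 of chromosome 8 had -0.45 with Nutlin (adjusted p = 0.507, edgeR) beside 1.76. Of the 4 fallen loci tested, the L1MD3 was called lower with Nutlin (log2 fold change -1.46, adjusted p = 0.000590, edgeR). The doses and compounds differ, and the difference between the drugs was not tested.

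When counts were summed over all copies of a repeat name, giving 1078 subfamilies tested, none was called (0.0%) by edgeR, with a smallest adjusted p of 0.0637. At an unadjusted p under 0.05 there were 126, of which 111 were higher and 15 lower. With only the 4 libraries in the fit, 97 were called (9.0%), 82 higher and 15 lower, and DESeq2 called 2. The smallest p among higher values was that of LTR17, the LTR of the HERV17 family, with 105 and 100.8 CPM with DMSO and 147.3 and 163.5 CPM with 5-FU. Its groups did not overlap (log2 fold change 0.60, SE 0.11, adjusted p = 0.0637, edgeR), and it was called by DESeq2 (adjusted p = 0.0305) and with only the 4 libraries in the edgeR fit (0.000145). LTR9B, HERVL74-int, MLT2B3 and LTR5A came next, all LTR elements, with log2 fold changes of 0.59, 0.54, 0.51 and 0.41. Like LTR17, none of them overlapped between groups, but neither did 55.8% of all subfamilies. None of these 4 was called by edgeR over all libraries or by DESeq2, and all 4 were with only the 4 libraries in the edgeR fit (adjusted p from 8.19e-06 to 0.00131). In MLT2B3, 44.7% of the counts fell on 1 copy, and in HERVL74-int 52.0%.

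MER45C had the smallest p among the lower subfamilies, with 127.8 and 97.2 CPM with DMSO and 58.9 and 60.6 CPM with 5-FU. The log2 fold change was -0.91 (SE 0.18), with an adjusted p of 0.0637 by edgeR and 0.000124 by DESeq2. The fallen copy of chromosome 16 described above held 39.8% of the subfamily's counts, and the rest of the subfamily had a log2 fold change of -0.16 (adjusted p = 0.846, edgeR). SVA_E was lower as well, and leaving out its most abundant copy made its value larger in size. It had 83.0 and 93.7 CPM with DMSO and 52.9 and 63.1 CPM with 5-FU (log2 fold change -0.61, adjusted p = 0.293, edgeR), and without its most abundant copy, on chromosome 1, the value was -1.29 (adjusted p = 0.0387, edgeR), the only subfamily then called of 1074. The fallen SVA_E copy of chromosome 6, which was still counted there, held 33.8% and 7.74% of the subfamily's counts in the DMSO libraries and 0 with 5-FU. Untreated cells had 67.4 and 61.0 CPM, below both DMSO libraries.

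Repeat names were also grouped by what they are known for. With 0.101% of all loci called, such groups hold too few copies for their counts of calls to set them apart. LTR10 and MER61 elements, LTRs that carry p53 binding sites, had 132 tested copies, 0 called, with a median log2 fold change of 0.09 against 0.00 for all loci. LTR10B1 had 54.3 and 65.3 CPM with DMSO, with a log2 fold change of -0.13, and MER61E of 0.23, neither called. The group of young elements held young Alu, L1 and SVA subfamilies and also HERVK-int, LTR5_Hs, HERVH-int and LTR7. Of its 3064 tested copies, 5 were called higher and 2 lower, and their median was 0.00. Of 87 satellite copies, 1 was called lower, the alpha satellite block described above. No copy was called among 251 of genes copied by RNA polymerase III, 64 of spliceosomal U RNAs and 65 of ribosomal RNA. Summed by name, 14 of 65 polymerase III names were higher and 3 lower at an unadjusted p under 0.05 and none was called, while with only the 4 libraries in the fit 10 were called higher and 3 lower, beside 97 of all 1078 names (9.0%).

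Among the polymerase III names, BC200, a small cytoplasmic RNA of primates derived from an Alu monomer, had 2446 and 2623 CPM with DMSO and 3923 and 4110 CPM with 5-FU. The groups did not overlap, which held for 55.8% of all subfamilies. The log2 fold change of 0.66 (SE 0.15) did not pass the test over all subfamilies (adjusted p = 0.108, edgeR), though it did with only the 4 libraries in the fit (2.66e-07). At 12 h its log2 fold change was 3.64 (adjusted p = 1.51e-08, edgeR). 7SK, the RNA that holds the elongation factor P-TEFb inactive, took 7.65% and 9.64% of the counts with DMSO and 11.0% and 11.7% with 5-FU, and 7SL, the RNA of the signal recognition particle, 4.48% and 4.47% against 5.37% and 5.79%. Neither passed the test of summed counts (log2 fold change 0.58 and adjusted p = 0.325 for 7SK, 0.49 and adjusted p = 0.416 for 7SL, edgeR). Small RNAs as a class took 17.7% and 20.6% with DMSO and 22.2% and 23.8% with 5-FU, without overlap. With 2 libraries in each group no exact test of a class share can reach 0.05, and none was made for the class.

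L1 was the one class of interspersed repeat with a lower share of counts in both 5-FU libraries, at 11.8% and 11.4% against 12.9% and 13.9% with DMSO. The median log2 fold change of the 15679 tested L1 copies was -0.20, and 60.1% had a negative value, while it was 0.13 for 17170 Alu copies. Relative to the median of all loci, L1 ran from -0.21 to -0.10 and Alu from 0.04 to 0.15 over the fits tried, the smallest sizes coming from copies with at least 10 counts in every library. TMM factors from all copies shifted the median of all loci to 0.12. The lower values went with the length of the copy, in limits set after the class medians were seen: the median was -0.37 in 6337 L1 copies of at least 1000 bp, -0.14 in 6396 copies of 300 bp up to 1000 bp and 0.01 in 2946 shorter ones. Copies of other classes showed the same order, with -0.26 in 3237 copies of at least 1000 bp, 0.00 in 17821 of 300 bp up to 1000 bp and 0.10 in 26865 shorter ones. Among LTR copies the medians from long to short were -0.23, -0.03 and 0.16, and among L2 and other old LINE copies -0.43, -0.20 and 0.06. Limited to copies with at least 10 counts in every library, the long L1 copies had a median of -0.24 and the long copies of other classes of -0.15.

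Long L1 copies took 7.15% and 6.82% of the counts outside ribosomal, transfer and small RNA with DMSO, and 6.23% and 6.10% with 5-FU. The untreated libraries had 6.22% and 5.52%, so the 5-FU libraries lay nearer to untreated cells than the DMSO libraries did. At 12 h the share was 7.21% and 6.70% with DMSO and 4.65% and 4.41% with 5-FU, and at 24 h the groups overlapped. The median log2 fold change of long L1 copies was -0.95 at 12 h and -0.04 at 24 h.

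**Figure D5:**
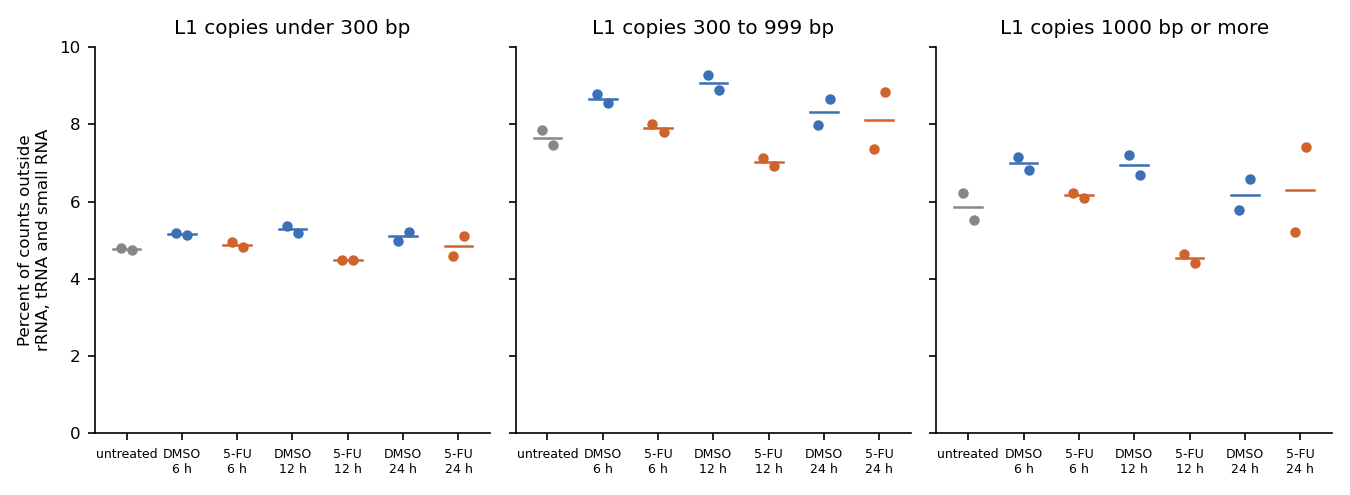
Percent of the counts outside ribosomal, transfer and small RNA (y axis) that fell on L1 copies of 3 length ranges, for each of the 14 libraries of the 5-FU table by group (x axis). Points are libraries and bars the mean of 2. The 5-FU libraries at 6 h lie below their DMSO libraries in each range, by most in the copies of at least 1000 bp.

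Just inside the limit of calling lay an L1MC4 of the smaller chromosome 12 window (log2 fold change 1.35, adjusted p = 0.0421) and the MIRb of the chromosome 16 window (1.98, adjusted p = 0.0475). Just outside lay an AluSx on chromosome 1 at 201433934 to 201434239 (1.105, adjusted p = 0.0532) and an AluSx4 on chromosome 14 at 70819714 to 70820005 (2.34, adjusted p = 0.0547, all by edgeR).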

How the data were processed

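Total RNA of IMR90 cells was sequenced as stranded total RNA, per the labels' protocols. The authors deposited raw counts per repeat copy, with the copy's name and hg19 position in its row name. The submitters' processing notes name hg19, Trimmomatic 0.32, cutadapt 1.10, Bowtie2, edgeR and DESeq2 without their roles. The counting program, repeat annotation and treatment of reads that fit several copies are not given in the sources used here. The tables give no strand.

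Counts were tested with edgeR 4.0.16 (R 4.3.3) by glmQLFit and glmQLFTest over all 14 libraries of the 5-FU table, after filterByExpr, with library totals over all copies and TMM factors. Total counts ran from 4816706 to 5535543 in the 4 libraries compared. Sums per repeat name were fitted in the same way. The Nutlin table was fitted apart, and its untreated columns, identical in every copy, were counted as 1 sample. Folds against a group at 0 use a floor of 3 counts per library, which covers counting error only. The test was checked on simulated data. Alternatives were DESeq2 1.42.0, other scaling and filters, other sets of libraries, a replicate block, and, chosen after seeing the data, TMM factors from other features and a robust spread.

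Members, lists and named loci (the locus of smallest p in each window with at least 2 calls, the 10 lone loci of smallest p, all fallen loci, 2 loci on each side of the threshold, and 5 subfamilies per direction) were chosen with earlier results of these data known. Further copies of those windows, and the L2c of chromosome 10, were picked after their values were seen. The class a name belongs to was assigned from the name. No hg19 genome or annotation was used here, so gene neighbourhoods are general knowledge and no sequence is printed.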

Additional observations from a re-analysis of the deposited data

Results flagged for a closer look

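The 12 h effect differed from the 6 h effect at 7 loci called at 6 h, and the 24 h effect at 8, by the interaction term in edgeR. The loci were chosen by their 6 h values, which also enter that term, so these counts are partly set by the choice. At 12 h these were the L1MB7 (adjusted p = 0.00973), ERVL-B4-int (0.00428), L2c (0.0286), MIRb (0.0122) and L2b (0.00937) copies of the window on chromosome 16 at 88455450 to 88460916, all with a larger effect, the L1MD3 of chromosome 9 (0.0272), with a larger fall, and the AluSq2 of chromosome 20 (0.0230), whose log2 fold change went from 7.42 to 0.10. At 24 h they were the L1MB7 (0.0205) and ERVL-B4-int (0.0102) copies of the same chromosome 16 window and a MIRb of chromosome 12 at 69210877 to 69211103 (0.0496), all larger than at 6 h, and the AluSq2 (0.0116) and the L1MB7 of chromosome 15 (0.00648), both with log2 fold changes near 0 at 24 h. Their DMSO libraries, at 0 at 6 h, had 6.93 and 4.99 CPM for the AluSq2 and 6.18 and 3.96 CPM for the L1MB7 at 24 h. The SVA_E of chromosome 6 (0.00537), the L1HS of chromosome 11 (0.0233) and the AluSx of chromosome X (0.000987) had been lower with 5-FU at 6 h and had log2 fold changes of 5.85, 1.48 and 7.87 at 24 h. Those 3 copies, the AluSq2 and the L1MB7 of chromosome 15 had a group without counts at 6 h, so the size of their difference is set by the fit's prior count. The AluSx had 12.5 CPM in 1 of the 24 h 5-FU libraries and 0 in the other, and the SVA_E had 2.94 CPM in 1 and 0 in the other. Against DMSO at 24 h, neither the SVA_E (adjusted p = 0.0929, edgeR) nor the L1HS (0.584) was called.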

How the results depend on the processing

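The number of loci called at 6 h was 64. It was 118 with DESeq2, which called 57 of the 64 in the same direction, 366 with no filter on low counts, 121 with only the 4 libraries in the fit, 107 with a robust estimate of the spread and 31 at an adjusted p under 0.01. It stayed between 57 and 77 with other scalings, at least 10 counts in every library, without structural RNA or when a log2 change of 1 or more in size was asked for. A like number need not mean the same loci. With at least 10 counts in every library, 68 were called, but only 40 of the 64 were tested there, all 40 called in the same direction. Leaving out 1 library gave 23 to 46 calls. None of the 64 called loci changed sign in any fit that tested it. Subfamilies went from 0 called to 2 with DESeq2, 1 without the most abundant copy and 97 with only the 4 libraries, and stayed at 0 in the other fits, with 45 to 126 at an unadjusted p under 0.05 in those. Of the early loci, 56 were called at 12 h (51 to 54 when a library was left out), 56 at 24 h (47 to 56) and 38 with Nutlin (36 to 39). The 7 whose 12 h effect differed became 13 with DESeq2, 11 with the 6 h and 24 h DMSO libraries as the control of 12 h, and 2 to 4 when a library was left out, and the 8 of 24 h became 3 to 9. The cause of these shifts was not tested, except that leaving out a library, and keeping only 4, change the number of libraries that the spread is estimated from. The replicate numbers did not pair the samples (correlation -0.0029 between the deviations of DMSO and 5-FU at 6 h). With the replicate block, 67 loci were called, 59 of the 64 among them and the AluYb8 of chromosome 4 not (adjusted p = 0.0537), and 0 subfamilies. At the 8 loci with a group at 0, counts give only a lower bound on the fold.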
